A study of Mus musculus with 10 samples.

Results

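Division of a cell into 2 daughters was followed here through 45 genes of mitosis and cytokinesis, in 10 RNA libraries of tumour-infiltrating CD8 T cells with or without a deletion directed at Nfat5. The members were taken from a list of genes by complex or step: the proliferation marker Mki67 and topoisomerase Top2a, cyclins with CDK1 and CDC25 phosphatases, spindle kinases, augmin, the chromosomal passenger complex, the spindle assembly checkpoint, anaphase entry, the kinetochore, condensin and cytokinesis. They are 45 of the 54408 genes to which the deposited transcripts were assigned. All 45 passed the filter on low counts, which left 13081 genes.

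Every library came from P14 CD8 T cells, whose transgenic receptor sees a viral peptide, and all cells were of strain C57BL/6 with both Nfat5 alleles floxed (NFAT5flox/flox). WT cells lacked Cre (CD4-Cre-/-, 5 libraries), and NFAT5 KO cells carried Cre driven from the Cd4 promoter (CD4-Cre+/-, 5 libraries), so that in the model the deletion begins in T cell development and not in the tumour. The cells had been activated in culture for 48 h, moved into mice with B16-gp33 melanoma, a tumour line that displays the peptide, and sorted as CD8 cells from the tumours after 7 days. Library titles begin with 678 (2 of WT and 3 of NFAT5 KO cells) or with 679 (3 of WT and 2 of NFAT5 KO cells), a prefix the labels do not explain. The labels do not say that the libraries came from separate mice, and the p-values below therefore measure only how much these libraries vary, which may be technical.

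Library totals were 22444310 to 32001285 estimated counts, and all libraries of a genotype differed from each other by more than sampling noise. Nfat5 itself was counted at 9.20 to 18.3 CPM (TMM-scaled counts at an equal total for each library) in WT and at 11.6 to 26.7 CPM in NFAT5 KO. The labels do not give the deleted exons, and a total over the whole gene therefore does not check the genotype labels. The 8 T cell markers summed to 8157 to 9205 CPM in WT and 8805 to 9361 CPM in NFAT5 KO. By the edgeR test used below, 1 of them, Trac, was higher in NFAT5 KO (log2 fold change 0.50, adjusted p = 0.0094), where 3.38% of all genes were higher. Of 8 melanoma markers, Sox10 and Slc45a2 were at 0 in every library, and the summed level was 1.19 to 4.27 CPM in WT and 0.916 to 3.79 CPM in NFAT5 KO.

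Mitosis begins when cyclin B bound to the kinase CDK1 is switched on by CDC25 phosphatases. Chromosomes are then compacted by condensin, a spindle built with the help of Aurora and Polo kinases attaches to their kinetochores, and a checkpoint holds the cell until each chromosome is attached. The anaphase-promoting complex, a ubiquitin ligase, next marks securin and cyclin B for destruction, separase cuts cohesin, and the central spindle guides the cut between the daughters. Most of these genes are transcribed late in the cell cycle, so that their RNA is plentiful in dividing T cells and scarce in resting ones.

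Mitotic genes were lower in NFAT5 KO than in WT libraries at each of these steps. By the edgeR quasi-likelihood test, 43 of 45 members were lower and 0 were higher at an adjusted p below 0.05, where 5.63% of all genes tested were lower and 3.38% higher. At an unadjusted p below 0.05, 44 members were lower, against 12.1% of all genes, and 0 were higher, and 0 were higher by DESeq2 or limma-voom. Of the members, 39 were lower by at least 2-fold with a passing p, against 3.07% of all genes. Fitted differences were at least 4-fold in 32 members and at least 8-fold in 13. These cuts required no passing p, no share of all genes is given for them, and both counts include Anln, which did not pass. The median log2 fold change was -2.57 over the members and 0.02 over all genes tested. In 41 of 45 members every NFAT5 KO library lay below every WT library, which was so for 6.41% of all genes, and in no member did every NFAT5 KO library lie above (3.92% of all genes). The members, and the partner and replication lists further below, were chosen with earlier results of these data known. Their shares against all genes are therefore not independent evidence that mitotic genes differ. In bulk libraries such as these, fewer dividing cells and less mitotic RNA per cell cannot be told apart.

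**Figure D1:**
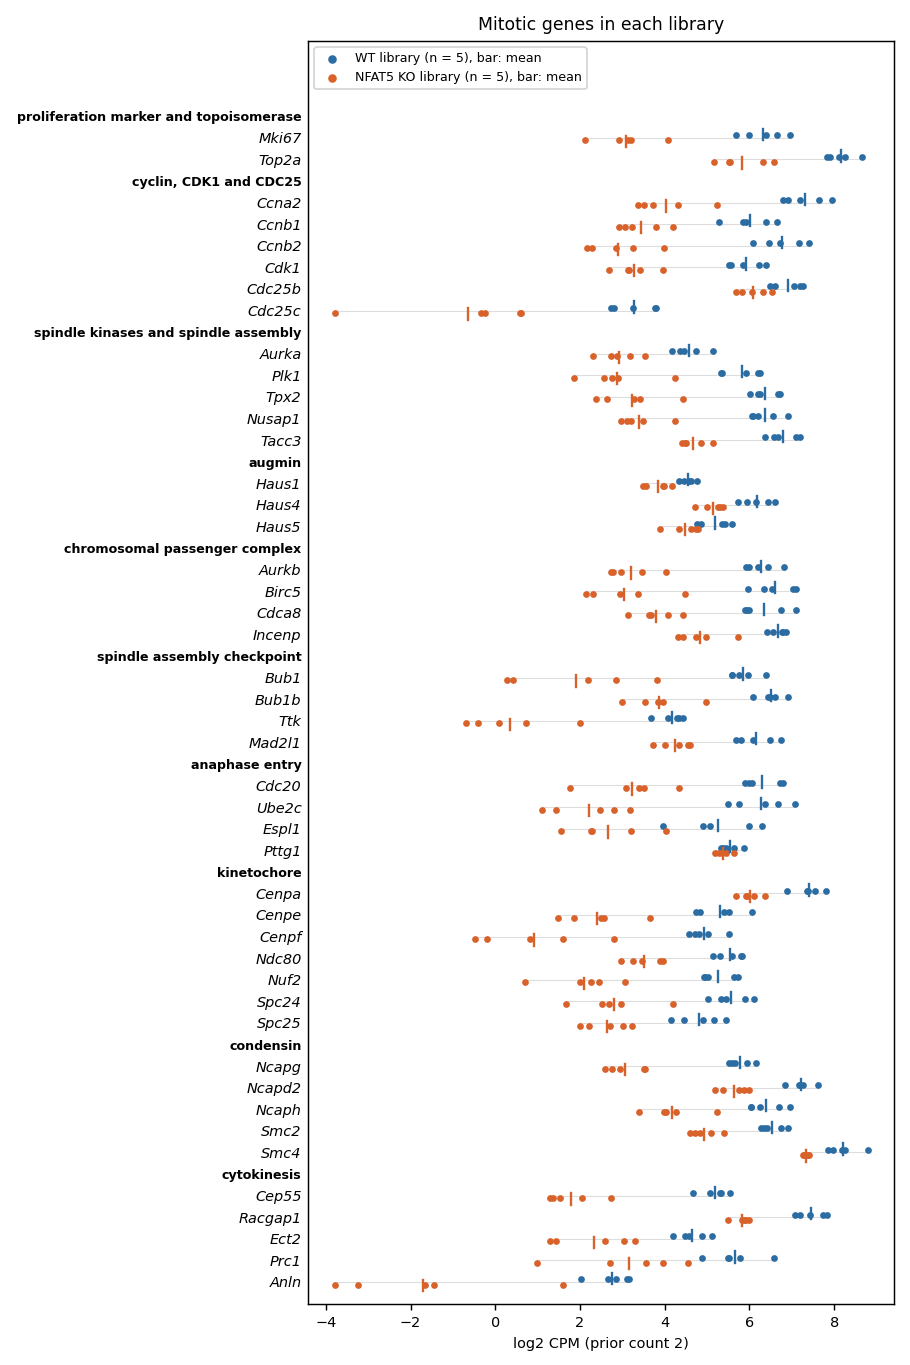
Level of each of the 45 mitotic genes in each library, on a log2 CPM axis, grouped by step. Blue points are the 5 WT and orange points the 5 NFAT5 KO libraries, with a bar at each mean. The 2 colours overlap for Cdc25b, Haus5, Espl1 and Pttg1 and are apart for the other 41 genes.

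Macrophage markers were also measured. The 12 listed genes summed to 72.0 to 152.8 CPM in WT and 37.6 to 81.9 CPM in NFAT5 KO, ranges that overlap. Within each label prefix they did not overlap. The sums were 112.5 and 72.0 CPM in WT and 70.9, 37.6 and 39.0 CPM in NFAT5 KO for prefix 678. For prefix 679 they were 152.8, 104.8 and 138.2 CPM in WT and 46.0 and 81.9 CPM in NFAT5 KO. No listed gene was at 0 in all libraries. Adgre1, which defines the type, was the 1 of 10 tested that was lower (adjusted p = 0.0387), against 5.63% of all genes. All tested markers except Itgam (0.27) had negative log2 fold changes, from -0.33 for Cd68 to -3.86 for Adgre1. Adgre1 was low throughout, at 0.944 to 4.10 CPM in WT and 0 to 0.377 CPM in NFAT5 KO. With the mean of these markers as a covariate, 2 members, Ncapg and Aurkb, stayed lower at an adjusted p below 0.05, where 0.0382% of all genes did. In that fit 42 members were lower at an unadjusted p below 0.05, against 5.1% of all genes, and the median member difference was -2.07. The part of macrophage RNA in the mitotic results was not tested.

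The direction was shared by libraries of both label prefixes. Among the 678 libraries all 45 log2 fold changes were negative, with a median of -2.46. With 2 WT and 3 NFAT5 KO libraries edgeR called 0 of 45 members and 0% of all genes, while 43 members were lower at an unadjusted p below 0.05, against 6.2% of all genes. Among the 679 libraries 34 members were called lower, against 1.82% of all genes, and 43 were lower at an unadjusted p below 0.05, against 9.13% of all genes, with a median of -2.67. The NFAT5 KO libraries lay below the WT libraries in 44 of 45 members within prefix 678 and in 44 within prefix 679, against 15.9% and 18.3% of all genes. The exception was Pttg1 each time. A test of whether the genotype difference itself depended on the prefix called 0 of 45 members and 0% of all genes, and 1 member, Ttk, had an unadjusted p below 0.05 (2.88% of all genes had).

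Libraries of one genotype kept a partial order across members. NFAT5 KO 678_3 was the highest NFAT5 KO library in 33 of 45 members, and NFAT5 KO 679_2 the lowest in 18. Among WT libraries 678_2 was highest in 28 members and 679_4 in 14, and 679_5 was lowest in 23 and 678_4 in 15. Summed over the members, TPM, a level per length that the deposited tables give, came to 3102, 2017, 2414, 2992 and 2089 in WT 678_2, 678_4, 679_3, 679_4 and 679_5. The sums were 919.9, 740.4, 614.1, 659.4 and 664.1 in NFAT5 KO 678_3, 678_5, 678_6, 679_2 and 679_6. The highest NFAT5 KO sum was thus below the lowest WT sum. Values by library are listed in this order from here on, WT before NFAT5 KO.

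Promoters of mitotic genes are known for pairs of CCAAT boxes, bound by NF-Y, and a cell cycle homology region (CHR) near the start site, commonly TTTGAA or TTCGAA, which binds the DREAM and MuvB complexes. Windows of 300 bases, from 250 before to 50 after a start site, were available from RefSeq (GRCm38.p6) for 37 members. The following 5 are shown because they set large and small differences beside each other. Ube2c (log2 fold change -4.00), Ccnb2 (-3.80) and Cdc25b (-0.83) held both motifs in the window, and Birc5 (-3.35) and Haus5 (-0.72) held neither there. They were chosen after their values were seen. Each is written 5′ to 3′ on the gene's strand, and capitals mark these 3 motifs on either strand, so that CCAAT on the other strand reads ATTGG.
Ube2c (chr2:164769679-164769978, plus strand): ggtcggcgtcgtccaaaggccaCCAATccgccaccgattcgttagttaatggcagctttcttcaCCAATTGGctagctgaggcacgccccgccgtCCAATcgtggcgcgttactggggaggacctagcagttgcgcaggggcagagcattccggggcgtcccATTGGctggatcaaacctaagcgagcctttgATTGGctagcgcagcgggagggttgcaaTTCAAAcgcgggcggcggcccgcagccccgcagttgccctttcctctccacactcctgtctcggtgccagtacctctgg
Ccnb2 (chr9:70421505-70421804, minus strand): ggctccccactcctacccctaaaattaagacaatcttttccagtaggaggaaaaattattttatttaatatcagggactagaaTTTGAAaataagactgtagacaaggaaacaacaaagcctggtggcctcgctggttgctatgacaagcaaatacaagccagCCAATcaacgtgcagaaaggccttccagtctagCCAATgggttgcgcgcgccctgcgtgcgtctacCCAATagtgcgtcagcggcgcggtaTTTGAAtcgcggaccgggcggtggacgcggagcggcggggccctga
Cdc25b (chr2:131186698-131186997, plus strand): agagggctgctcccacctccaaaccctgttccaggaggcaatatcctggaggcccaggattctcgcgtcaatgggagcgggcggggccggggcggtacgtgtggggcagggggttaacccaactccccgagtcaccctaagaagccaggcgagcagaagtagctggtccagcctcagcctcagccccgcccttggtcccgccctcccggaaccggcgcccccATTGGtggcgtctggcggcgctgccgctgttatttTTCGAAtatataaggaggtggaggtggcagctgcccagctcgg
Birc5 (chr11:117848987-117849286, plus strand): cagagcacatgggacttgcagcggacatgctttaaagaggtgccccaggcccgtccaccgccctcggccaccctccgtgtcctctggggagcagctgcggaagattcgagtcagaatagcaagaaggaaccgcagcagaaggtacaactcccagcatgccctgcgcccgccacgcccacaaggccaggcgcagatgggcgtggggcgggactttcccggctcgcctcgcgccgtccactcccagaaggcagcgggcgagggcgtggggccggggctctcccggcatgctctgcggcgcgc
Haus5 (chr7:30664945-30665244, minus strand): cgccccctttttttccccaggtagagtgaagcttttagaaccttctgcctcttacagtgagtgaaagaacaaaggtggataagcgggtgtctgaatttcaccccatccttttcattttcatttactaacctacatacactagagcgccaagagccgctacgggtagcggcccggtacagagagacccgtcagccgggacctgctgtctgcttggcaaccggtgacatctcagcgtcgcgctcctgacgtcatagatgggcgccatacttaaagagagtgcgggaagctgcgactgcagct

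Of the 37 members with a window, 26 (70.3%) held CCAAT, as did 41.1% of all 27025 genes with windows of this length. TTTGAA or TTCGAA was found in 26 members (70.3%) and in 21.7% of all genes, and at least 2 CCAAT matches in 16 members (43.2%) and 13.3% of all genes. Both motifs were in the windows of 23 members (62.2%) and of 8.61% of all genes. With 1 window a gene, the median position was 71 bases before the start for 57 CCAAT matches and 1 base before it for 36 matches of TTTGAA or TTCGAA. The 23 members with both motifs ranged from -4.00 to -0.83 (median -2.56), and the 8 with neither from -3.35 to -0.17 (median -2.13). The size of the difference thus overlapped widely between members with and without matches. The windows of Cdca8, Haus4 and Pttg1 begin from a RefSeq start over 200 bases inside the GENCODE gene and need not hold its first promoter. Without these 3, the 22 members with both motifs had a median of -2.54 and the 7 with neither one of -2.14. Mad2l1 is among those 7, and its window ends before the GENCODE gene begins, so that matches near that start would be missed. The window of Birc5, which sets the -3.35 end of the range with neither motif, ends at chr11:117849286. The GENCODE gene of Birc5 begins at 117849251, and matches beyond a window's end would be missed for it and for other members. A match describes the letters in a window and is not a shown binding site.

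Mki67 encodes the protein Ki-67, which coats mitotic chromosomes and is the usual marker of cycling cells. The gene (ENSMUSG00000031004) lies on the minus strand at chr7:135689784-135716361 (GRCm38). It was at 124, 83.3, 100.0, 51.6 and 63.0 CPM in the WT libraries and at 16.8, 8.72, 9.14, 4.28 and 7.51 CPM in the NFAT5 KO libraries. The groups did not overlap, and Mki67 fell by 3.18 on the log2 scale (SE 0.34, edgeR adjusted p = 0.000258). Top2a, the topoisomerase that untangles sister DNA before segregation, fell from 291 ± 70.4 to 60.8 ± 25.6 CPM (SD, n = 5 each), a log2 fold change of -2.26 (SE 0.26, edgeR adjusted p = 0.000385).

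All 6 genes of the CDK1 switch were lower, with a median log2 fold change of -2.90. Cdk1 (ENSMUSG00000019942, chr10:69335146-69352938, minus strand) encodes the kinase that drives entry into mitosis. Its level was 83.6, 47.1, 46.0, 74.6 and 57.7 CPM in WT and 15.4, 8.68, 6.37, 8.84 and 10.6 CPM in NFAT5 KO. Every WT library exceeded every NFAT5 KO library, with a log2 fold change of -2.63 (SE 0.25, edgeR adjusted p = 0.000134). Ccna2, cyclin A2, which acts with CDK2 in S phase and with CDK1 before prophase, had a log2 fold change of -3.16 (SE 0.37, edgeR adjusted p = 0.000377).

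The 2 B-type cyclins are both activators of CDK1. Ccnb1 was counted at 101, 60.8, 57.9, 83.9 and 38.7 CPM in WT and 18.2, 7.47, 13.8, 9.35 and 8.25 CPM in NFAT5 KO libraries. Ccnb2 had 144, 67.8, 105, 170.1 and 88.4 CPM in WT and 15.7, 4.43, 9.502, 4.79 and 7.12 CPM in NFAT5 KO libraries. The groups were apart for both genes, and the CPM of Ccnb2, not corrected for length, was above that of Ccnb1 in each WT library and below it in each NFAT5 KO library. Log2 fold changes were -2.59 (SE 0.30) for Ccnb1 and -3.80 (SE 0.37) for Ccnb2. The log2 difference of Ccnb2 minus Ccnb1 shifted by -1.28 between genotypes (two-sided exact permutation test, p = 0.00794, the smallest that 252 arrangements allow, adjusted p = 0.0113 over 10 pairs chosen with earlier results of these data known).

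CDC25 phosphatases remove the inhibitory phosphates from CDK1. Cdc25b was at 132, 96.8, 154, 148 and 89.0 CPM in WT and 80.1, 93.2, 66.9, 51.6 and 57.1 CPM in NFAT5 KO libraries, and Cdc25c at 13.6, 9.44, 6.91, 13.8 and 6.57 CPM and 0.774, 1.43, 0.717, 0 and 1.46 CPM. For Cdc25b the groups overlapped, since NFAT5 KO 678_5 exceeded WT 679_5, and the log2 fold change was -0.83 (SE 0.19, edgeR adjusted p = 0.0175). For Cdc25c they did not overlap, and NFAT5 KO 679_2 had 0 counts, where 3 counts would be 0.103 CPM. The fitted log2 fold change of Cdc25c was -3.51 (SE 0.66, edgeR adjusted p = 0.00578). The shift of Cdc25c minus Cdc25b was -3.08 (exact permutation p = 0.00794, adjusted p = 0.0113), with groups apart, and -2.39 without NFAT5 KO 679_2. The size of this shift depends on the prior count of 2, which set the log2 CPM of Cdc25c in that library at -3.79.

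Of the spindle genes all 5 were lower, with a median of -2.79. Nusap1 (ENSMUSG00000027306, chr2:119618298-119651244, plus strand) encodes a protein that binds and stabilises spindle microtubules. It was measured at 121, 66.2, 73.9, 93.3 and 67.9 CPM in WT and 18.9, 8.53, 11.1, 7.81 and 9.10 CPM in NFAT5 KO. The groups were apart, and Nusap1 fell by 2.93 on the log2 scale (SE 0.27, edgeR adjusted p = 0.000117). Tacc3, which steadies microtubule bundles with clathrin and ch-TOG, had a log2 fold change of -2.12 (SE 0.19, edgeR adjusted p = 0.000117), and the Polo kinase Plk1 one of -2.79 (SE 0.39, edgeR adjusted p = 0.00115).

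Aurora A, the product of Aurka, works at spindle poles, and Tpx2 encodes the protein that activates it there. Aurka was at 35.2, 22.0, 20.5, 26.7 and 17.9 CPM in WT and 6.52, 9.05, 7.22, 4.86 and 11.5 CPM in NFAT5 KO. Tpx2 was at 103, 76.3, 73.0, 106 and 64.0 CPM in WT and 21.5, 10.7, 5.16, 6.13 and 9.61 CPM in NFAT5 KO. Neither gene showed overlap of the groups. Their log2 fold changes were -1.65 (SE 0.26, edgeR adjusted p = 0.00184) and -2.99 (SE 0.35, edgeR adjusted p = 0.000362).

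Augmin recruits gamma-tubulin so that new microtubules branch from old ones within the spindle. Its 3 listed subunits were lower by less than most members, with a median of -0.72. Haus2, Haus3, Haus6, Haus7 and Haus8, its subunits among the partner genes further below, did not pass, and their groups overlapped. Their log2 fold changes ran from -0.42 (Haus7) to -0.06 (Haus2). Haus4 (ENSMUSG00000022177, chr14:54541785-54554616, minus strand) had 86.9, 53.4, 71.5, 96.6 and 61.4 CPM in WT and 38.0, 31.8, 39.2, 26.4 and 41.7 CPM in NFAT5 KO libraries. The groups did not overlap, and the log2 fold change was -1.06 (SE 0.18, edgeR adjusted p = 0.00287). Haus1 was at 23.6, 22.0, 24.7, 26.9 and 20.1 CPM in WT and 15.8, 11.1, 15.6, 17.98 and 11.7 CPM in NFAT5 KO, also apart, with -0.70 (SE 0.17, edgeR adjusted p = 0.0213). Haus5 overlapped between genotypes (-0.72, SE 0.21, edgeR adjusted p = 0.0484), and it passed in 4 of 10 fits that left out 1 library, with adjusted p-values of up to 0.113, the highest without WT 678_2. It did not pass with the label prefix as a block either (adjusted p = 0.0834). Without that library the adjusted p of Haus1 was 0.0519. Haus1 lies opposite Atp5a1, a gene at 731 TPM in WT and 692 TPM in NFAT5 KO, and with no strand setting given reads of the overlap cannot be told apart. Against Haus1, Tpx2 shifted by -2.42 in log2 difference (exact permutation p = 0.00794, adjusted p = 0.0113), with groups apart.

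The chromosomal passenger complex corrects faulty attachments, with Aurora B (Aurkb) as its kinase, INCENP as scaffold, and survivin (Birc5) and borealin (Cdca8) as the parts that place it on the centromere. All 4 genes were lower, with a median of -2.81. Aurkb (ENSMUSG00000020897, chr11:69045647-69051664, plus strand) was at 113, 63.3, 73.6, 86.8 and 60.7 CPM in WT and 16.2, 6.56, 7.80, 6.75 and 10.97 CPM in NFAT5 KO libraries. Incenp had 112, 85.7, 116, 108 and 93.8 CPM in WT and 52.6, 31.3, 19.8, 21.7 and 26.6 CPM in NFAT5 KO. The groups were apart for both genes. Aurkb had a log2 fold change of -3.04 (SE 0.28, edgeR adjusted p = 0.000117) and Incenp of -1.76 (SE 0.23, edgeR adjusted p = 0.000779). Birc5 (-3.35, SE 0.43) and Cdca8 (-2.57, SE 0.29) passed as well (adjusted p = 0.000622 and 0.000347). The log2 difference shifted by -1.24 for Aurkb minus Incenp and by 1.43 for Aurka minus Aurkb (exact permutation p = 0.00794 and adjusted p = 0.0113 for each). The CPM of Aurka, not corrected for length, was below that of Aurkb in all 5 WT libraries and above it in 2 of 5 NFAT5 KO libraries.

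The spindle assembly checkpoint holds back anaphase through kinases at unattached kinetochores (Bub1 and Ttk, also called MPS1) and inhibitors of the anaphase-promoting complex (Mad2l1 and Bub1b, or MAD2 and BUBR1). All 4 were lower, with a median of -2.96. Mad2l1 (ENSMUSG00000029910, chr6:66535390-66547220, plus strand) stood at 89.6, 55.7, 67.4, 108 and 51.4 CPM in WT and 24.2, 13.1, 20.1, 15.9 and 23.2 CPM in NFAT5 KO. Bub1 stood at 84.2, 48.0, 53.6, 62.2 and 47.8 CPM in WT and 14.1, 1.14, 4.48, 1.27 and 7.18 CPM in NFAT5 KO. Groups were apart for both genes, and the NFAT5 KO libraries of Bub1 spread widely among themselves, from 1.14 CPM in 678_5 to 14.1 CPM in 678_3. Log2 fold changes were -1.95 (SE 0.23, edgeR adjusted p = 0.000453) for Mad2l1 and -3.40 (SE 0.58, edgeR adjusted p = 0.00306) for Bub1. Those of Bub1b and Ttk were -2.52 (SE 0.31) and -3.56 (SE 0.48), and both passed (adjusted p = 0.000545 and 0.000843). Without NFAT5 KO 678_3, the highest NFAT5 KO library for both, Bub1 was at -4.09 and Ttk at -4.28. Bub1 minus Mad2l1 shifted by -2.02 (exact permutation p = 0.0159, adjusted p = 0.0198), although NFAT5 KO 678_3 (-0.78) lay just above WT 679_4 (-0.79).

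Anaphase entry held both the member with the largest and the one with the smallest difference. Ube2c (ENSMUSG00000001403, chr2:164769898-164778822, plus strand), the enzyme that supplies ubiquitin to the anaphase-promoting complex, was at 135, 82.0, 53.8, 102 and 45.2 CPM in WT and 9.04, 6.92, 2.65, 2.09 and 5.44 CPM in NFAT5 KO. Its groups were apart, and the log2 fold change was -4.00 (SE 0.43, edgeR adjusted p = 0.000258), which left 6.26% of the WT level. Cdc20, the activator of that complex which the checkpoint blocks, was at 105, 63.0, 66.8, 111 and 59.2 CPM in WT and 20.2, 8.46, 11.3, 3.32 and 10.49 CPM in NFAT5 KO. Cdc20 was apart too, with a log2 fold change of -2.92 (SE 0.38, edgeR adjusted p = 0.000724). The pair Ube2c minus Cdc20 shifted by -1.003 (exact permutation p = 0.0238, adjusted p = 0.0265), and its groups overlapped.

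Pttg1 (ENSMUSG00000020415, chr11:43420250-43426251, minus strand) encodes securin, the inhibitor that keeps separase inactive until anaphase. Its level was 43.7, 49.6, 40.4, 58.7 and 41.6 CPM in WT and 43.2, 36.1, 49.3, 40.7 and 38.8 CPM in NFAT5 KO. The ranges lay over each other, and the log2 fold change of -0.17 (SE 0.13, edgeR adjusted p = 0.485) did not pass, which does not show that the level was the same. Espl1, separase itself, had a log2 fold change of -2.56 (SE 0.51, edgeR adjusted p = 0.00801). It overlapped in 1 library of each genotype, WT 679_4 at 15.6 CPM and NFAT5 KO 678_3 at 16.2 CPM.

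All 7 kinetochore genes were lower, with a median of -2.57. NDC80, NUF2, SPC24 and SPC25 form the NDC80 complex, the rod that grips microtubules. Ndc80 (ENSMUSG00000024056, chr17:71496100-71526857, minus strand) was at 55.8, 39.5, 47.8, 56.6 and 35.2 CPM in WT and 15.4, 14.7, 9.41, 7.71 and 11.04 CPM in NFAT5 KO. Spc24 was at 68.8, 32.4, 40.2, 59.7 and 43.2 CPM in WT and 18.2, 6.34, 3.09, 7.77 and 5.70 CPM in NFAT5 KO. The groups were apart for each. Log2 fold changes were -2.01 (SE 0.22, edgeR adjusted p = 0.000258) for Ndc80, -3.04 (SE 0.36) for Nuf2, -2.57 (SE 0.40) for Spc24 and -2.20 (SE 0.30) for Spc25. The log2 difference of Ndc80 minus Spc24 was higher by 0.72 in NFAT5 KO, which did not pass (exact permutation p = 0.103, adjusted p = 0.103), and it was higher by 0.96 without NFAT5 KO 678_3 (p = 0.0318).

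Cenpa, the histone that marks the centromere, was the kinetochore gene with the smallest difference (-1.41, SE 0.17, edgeR adjusted p = 0.000425) and fell from 173 ± 38.8 to 65.0 ± 11.8 CPM (SD, n = 5 each). The kinesin Cenpe, which carries chromosomes to the spindle equator, and Cenpf, a large outer kinetochore protein, had log2 fold changes of -2.80 (SE 0.40, edgeR adjusted p = 0.00115) and -3.58 (SE 0.55, edgeR adjusted p = 0.00182). Without NFAT5 KO 678_3, Cenpf was at -4.36.

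Condensin I consists of the ATPases SMC2 and SMC4 and of the subunits NCAPD2, NCAPG and NCAPH that occur in it alone. All 5 genes were lower, with a median of -1.61. Ncapg (ENSMUSG00000015880, chr5:45669919-45700546, plus strand) was at 71.0, 46.0, 48.4, 61.1 and 50.7 CPM in WT and 11.4, 11.5, 6.72, 7.64 and 5.99 CPM in NFAT5 KO. Smc4 was at 307, 232, 289, 444 and 251 CPM in WT and 164, 157, 170.1, 166 and 153 CPM in NFAT5 KO. The groups were apart for both, and the NFAT5 KO libraries of Smc4 lay close together. Ncapg had the smallest p of all members (log2 fold change -2.68, SE 0.22, edgeR adjusted p = 9.08e-05), and Smc4 a log2 fold change of -0.91 (SE 0.15, edgeR adjusted p = 0.00244). Ncapg minus Smc4 shifted by -1.83 (exact permutation p = 0.00794, adjusted p = 0.0113). Between these lay Ncaph (-2.14, SE 0.31), Smc2 (-1.61, SE 0.18) and Ncapd2 (-1.58, SE 0.17), all of which passed (adjusted p = 0.00131, 0.000269 and 0.000272).

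Cytokinesis genes were lower in 4 of 5 cases, with a median of -2.19. Cep55 (ENSMUSG00000024989, chr19:38055011-38074423, plus strand) builds the midbody platform for the final cut. It was at 39.3, 33.6, 46.8, 39.9 and 25.3 CPM in WT and 6.60, 2.49, 4.03, 2.81 and 2.36 CPM in NFAT5 KO. Racgap1, a part of centralspindlin at the spindle midzone, was at 214, 146, 172, 228 and 135 CPM in WT and 63.0, 58.5, 45.1, 56.9 and 60.7 CPM in NFAT5 KO. Both genes had groups that were apart. The log2 fold changes were -3.34 (SE 0.30, edgeR adjusted p = 0.000117) for Cep55 and -1.66 (SE 0.15, edgeR adjusted p = 0.000117) for Racgap1, and the pair shifted by -1.76 (exact permutation p = 0.00794, adjusted p = 0.0113). Ect2, which starts the contractile ring at the division plane, had -2.15 (SE 0.38, edgeR adjusted p = 0.00373). Prc1, which bundles midzone microtubules, had -2.19 (SE 0.51, edgeR adjusted p = 0.0192), and 0.0584 as its adjusted p without WT 678_2.

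Anln (ENSMUSG00000036777, chr9:22332012-22389188, minus strand) encodes anillin, the scaffold of the contractile ring, and was the member with the lowest TPM in WT. It was at 8.91, 4.02, 7.13, 6.27 and 8.63 CPM in WT and 0.244, 0.293, 0, 0.0343 and 2.98 CPM in NFAT5 KO, from 118 or more counts in WT and from 6, 8, 0, 1 and 92 counts in NFAT5 KO. All NFAT5 KO libraries lay below all WT libraries, but 679_6 stood far above the other NFAT5 KO libraries. The log2 fold change of -3.26 (SE 0.96) had an adjusted p of 0.0540, which did not pass. Without NFAT5 KO 679_6 it was -5.57 with an adjusted p of 0.00193, and DESeq2 and limma-voom gave adjusted p-values of 0.00314 and 0.00885 with all libraries. Over 22 alternatives the adjusted p of Anln ran from 0.00193 to 0.771.

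**Figure D2:**
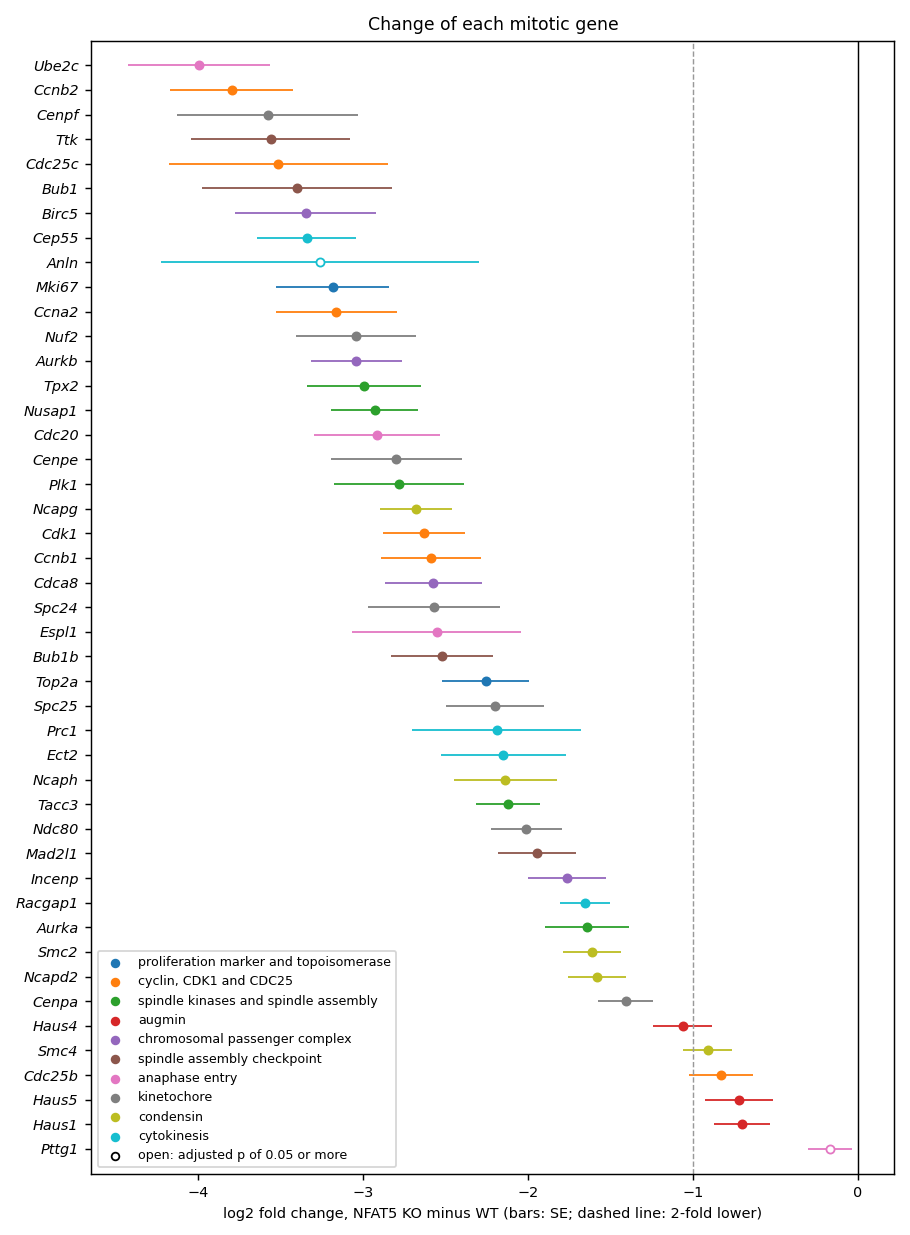
Log2 fold change of each mitotic gene, NFAT5 KO minus WT, with its SE, ordered from the largest to the smallest difference and coloured by step. Filled points have an adjusted p below 0.05. Values run from -4.00 for Ube2c to -0.17 for Pttg1, and Anln and Pttg1 are the open points.

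Of the 10 pairs of members compared within libraries, 9 passed at an adjusted p below 0.05, and in 7 of these the NFAT5 KO and WT libraries did not overlap. Since the pairs were chosen with earlier results of these data known, their p-values are not independent evidence that members of a complex differ. Tpx2 with Haus1 and Aurka with Aurkb join genes of different steps.

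**Figure D3:**
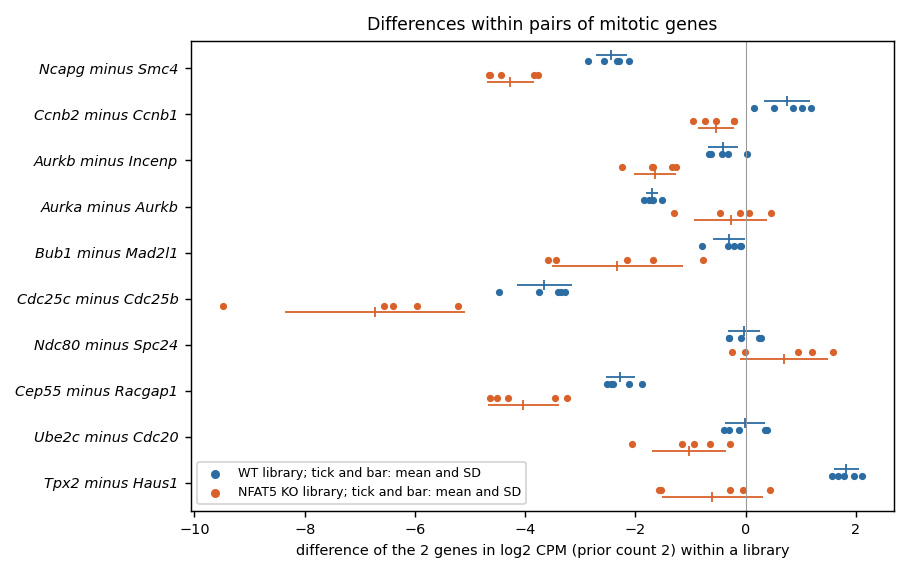
Log2 CPM of the first gene minus that of the second within each library, for 10 pairs of mitotic genes, with the mean and SD of the 5 WT (blue) and 5 NFAT5 KO (orange) libraries. The NFAT5 KO libraries lie below all WT libraries for 6 pairs and above all of them for Aurka minus Aurkb.

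Measured per length, the order of the members changed with genotype. In WT the highest were Cenpa at 266 TPM, Smc4 at 229.5, Birc5 at 149, Pttg1 at 109 and Cdk1 at 109 TPM (means of 5 libraries). In NFAT5 KO they were Smc4 at 117.5, Cenpa at 98.2, Pttg1 at 97.3, Haus4 at 36.9 and Smc2 at 33.7 TPM. Pttg1 went from 4.32% to 13.5% of the summed member TPM, and Smc4 from 9.10% to 16.3%. Birc5 moved from rank 3 to 15, Ube2c from 6 to 22 and Ccnb2 from 9 to 23. Transcripts not marked as protein-coding held most of the WT TPM of 3 members, 62.1% for Cdk1, 70.2% for Cenpa and 75.8% for Smc2 (medians of 5 libraries). With protein-coding transcripts alone, an alternative chosen after the data were seen, these genes had log2 fold changes of -2.55, -1.45 and -1.64. Opposite-strand genes at over 1 TPM overlap Ccna2, Nusap1, Tacc3, Haus1, Cdca8, Cdc20, Ncapg and Prc1, and with no strand setting given the reads of such overlaps cannot be told apart.

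The partner genes of the same machinery, 107 genes all tested, were lower in 48 cases and higher in 2, with a median of -0.43, where 5.63% of all genes tested were lower and 3.38% higher. Lower partners with the smallest p-values included Cks1b (log2 fold change -2.04), a CDK1-binding subunit, the centromere genes Cenpk (-2.23), Cenph (-2.005) and Hjurp (-0.84), the outer kinetochore gene Ska1 (-3.72), the spindle gene Ckap2l (-2.79) and Arhgap11a (-1.98), a regulator of the division plane. The 2 higher ones, a smaller share than among all genes, were Nipbl (0.44), the loader of cohesin, and Pdcd6ip (0.27), also known as ALIX, an abscission factor with roles in membrane traffic. Groups were apart for each of the genes named here.

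Counts of partners that passed are given by list, to be read against the 5.63% of all genes that were lower and the 3.38% that were higher. Lower were 10 of 17 centromere and loading factors (median -1.54), 6 of 9 outer kinetochore partners (-1.33), 5 of 10 genes of the checkpoint and cohesion protection (-1.59) and 7 of 13 spindle and centrosome partners (-1.85). Of CDK1 regulators 6 of 9 were lower (-0.77). Of the anaphase-promoting complex and its regulators 4 of 17 were lower (-0.19), and Fbxo5, an inhibitor of the complex named after its value was seen, was the only one past 2-fold (-2.75). Cohesin had 3 lower and 1 higher of 10 (-0.03), with Cdca5 (sororin) at -2.57, also named after its value was seen. All 3 subunits of condensin II alone were lower, Ncapg2 by 2.23, Ncapd3 by 0.72 and Ncaph2 by 0.40 on the log2 scale. Of the other augmin and gamma-tubulin genes 2 of 9 were lower (-0.34), Tubg1 and Tubgcp2, and none of these 2 is an augmin subunit. Of the other cytokinesis and abscission genes 2 were lower and 1 higher of 10 (0.03). Whether the lists differ from each other was not tested.

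**Figure D4:**
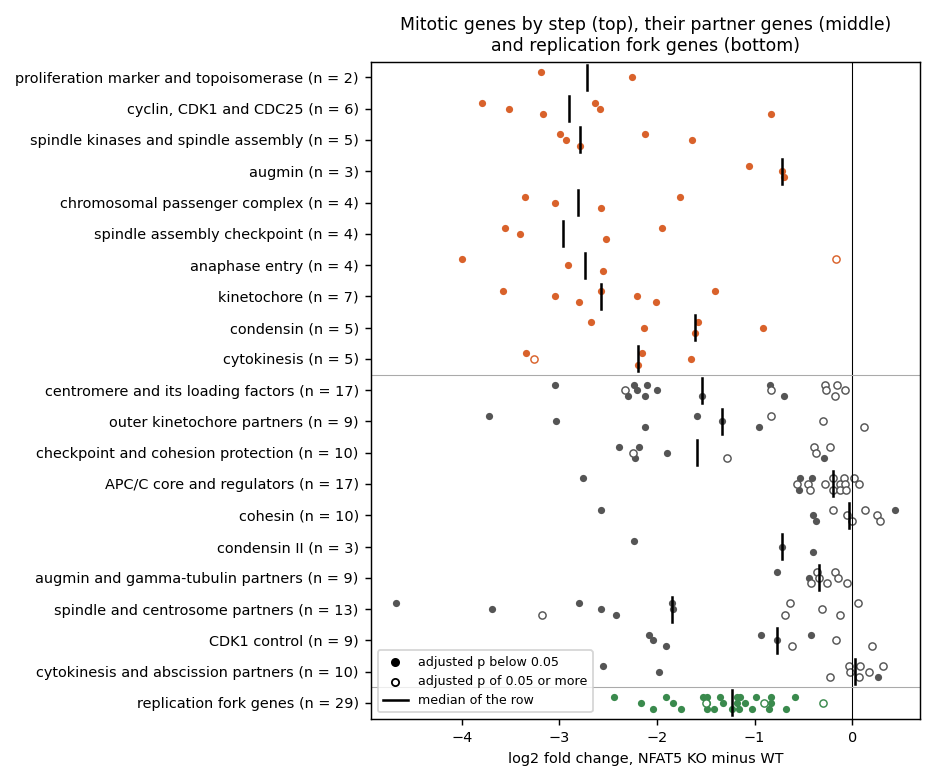
Log2 fold change, NFAT5 KO minus WT, of the 45 mitotic genes by step (orange), of 107 partner genes (grey) and of 29 replication fork genes (green), with a bar at the median of each row. Filled points have an adjusted p below 0.05. Medians run from -2.96 for the checkpoint genes to 0.03 for the cytokinesis and abscission partners.

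Beside the mitotic genes, 26 of 29 genes of the replication fork, which act in S phase, were lower and 0 higher, with a median of -1.23 and no member positive (5.63% of all genes were lower and 3.38% higher). The 3 with the smallest p-values were Mcm2 (log2 fold change -1.19), Mcm4 (-1.16) and Mcm6 (-0.84), subunits of the replicative helicase. The medians of the mitotic and replication lists are given side by side, and their difference was not tested.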

How the data were processed

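RNA was measured in 10 libraries. The authors deposited an estimated count of reads and a TPM value (a level per effective length) for each transcript, made with Salmon 0.14.1 on GRCm38.p6 per the submitters' processing notes and, for the units, per the file headers. Their annotation and strand setting are not given in the sources used. Transcripts were matched to GENCODE M21 (99.38% matched) and counts were summed per gene and rounded.

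NFAT5 KO was compared with WT over all libraries with the edgeR 4.0.16 quasi-likelihood test (R 4.3.3, limma 3.58.1): filterByExpr, TMM factors, no covariate, Benjamini-Hochberg adjustment over 13081 genes, threshold 0.05. The SE is the absolute log2 fold change over the square root of the F statistic. Log2 CPM used a prior count of 2. Pairs of members were tested by two-sided exact permutation. The fit was tested on simulated data. Library depth sets the counting error; intervals of the counts were not used.

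Members, lists and pairs were chosen with earlier results of these data known. All 45 members are named; values in every library are given for Mki67, for the member with the smallest p of each step, for members of the pairs and for members that did not pass. Named partners are the 8 lower and up to 4 higher with the smallest p, and the 3 such replication genes; 1 gene that this rule took is not reported here, though the counts include it. Other names were chosen after their values were seen. Alternatives were DESeq2 1.42.0 size factors and Wald test, library size alone, other filters, a length offset, the label prefix as a block or alone, marker covariates, limma-voom, other scales for the pairs and leaving out each library.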

Additional observations from a re-analysis of the deposited data

Results flagged for a closer look

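Among 90 sets of 5 libraries (45 mitotic genes in 2 genotypes), 1 had a library far from the others by Dixon's test, where chance alone gives about 1 in 20. Cdc25c in NFAT5 KO 679_2, with 0 counts, had a log2 CPM of -3.79, and the nearest NFAT5 KO library -0.34. At 0 counts the value of -3.79 is set by the prior count of 2, and its distance from the other libraries depends on that setting.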

How the results depend on the processing

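No member, pair or count reversed its direction under any alternative run. Of the 45 members, 40 passed in all 10 fits that left out 1 library, and the number lower ranged from 40 to 43. Lower members numbered 44 with the DESeq2 Wald test, with limma-voom, with library size alone and with protein-coding transcripts alone, 41 with no filter on low counts, and 43 with the prefix as a block, where Haus5 lost its call and Anln passed (adjusted p = 0.0431). Of all 13081 genes, 737 were lower in the main fit, 1082 with the DESeq2 Wald test and 917 with limma-voom. Library size alone gave 859 of these genes and the prefix as a block 635. With protein-coding transcripts alone 652 of 10812 genes were lower, and with no filter 669 of 22914. Fits that left out 1 library gave 494 to 786 lower genes of 13343 to 13405. Counts changed by over 1.5 times in the cases that follow, and the cause was not tested. With prefix 678 alone 0 members, 0 partners and 0 replication genes were lower. With prefix 679 alone 20 partners were lower, against 48. With the macrophage markers as covariate 2 members, 0 partners and 0 replication genes were lower. Partners that were higher, 2 in all libraries, numbered 1 with library size alone, no filter, the prefix as a block or the melanoma covariate, 0 with either prefix alone or the macrophage covariate, and 0 to 1 when a library was left out. Haus5, Prc1 and Haus1 lost their calls without WT 678_2, and over 23 alternatives their adjusted p-values reached 0.852, 0.588 and 0.484, each with the macrophage covariate. Low counts limit Anln and Cdc25c, each with an NFAT5 KO library at 0 counts.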

Other observations

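Markers of other cell types gave these summed levels, with no explanation tested. The 5 B cell markers came to 8.41 to 14.4 CPM in WT and 5.16 to 11 CPM in NFAT5 KO, and Pax5 was at 0 in all libraries. The 5 neutrophil markers came to 0.127 to 2.10 CPM in WT and 0 to 0.583 CPM in NFAT5 KO, with 2 of them at 0 throughout. The 5 dendritic cell markers came to 3.57 to 11.6 CPM in WT and 9.09 to 19.2 CPM in NFAT5 KO, most of it Xcr1. The 4 endothelial markers came to 39.7 to 68.3 CPM in WT and 35.3 to 50.4 CPM in NFAT5 KO, all of it Pecam1, which T cells also express. The 5 fibroblast markers reached at most 1.36 CPM, the 2 CD4 T cell markers at most 2.42 CPM and the 4 erythroid markers at most 16.1 CPM (WT 679_4).

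Among partner genes the spindle kinase gene Nek2, named after its value was seen, had a larger log2 fold change (-4.67, SE 0.82, adjusted p = 0.00386) than any member. It was at 32.1 to 69.9 CPM in WT (mean 46.8) and at 0 to 5.09 CPM in NFAT5 KO (mean 1.85), where the lowest library had 0 counts.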
